A study of Homo sapiens with 9 samples.

Results

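The genes examined here were chosen with earlier results of these data known. They are 38 genes of the hypoxia response and of glycolysis, named by symbol from their known roles. They make up 38 of the 13598 genes tested and 87 of the 54675 probe sets (groups of short probes for 1 transcript) on the array. They comprise 2 glucose transporters, 16 glycolytic enzymes, 4 regulators of glycolysis, 15 targets of the hypoxia-inducible factors (HIFs) that act outside glycolysis, and the HIF subunit HIF1A. All 38 had at least 1 probe set above the filter on dim signals, which asked for a signal above the array's median on at least 3 of the 9 arrays.

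SW480 is a human colorectal carcinoma line, and SW480/EGFP is that line carrying the green fluorescent protein EGFP. SCP51 and SCP58 are progenies that each grew from 1 SW480/EGFP cell, classed by the submitters as a high and a low metastatic variant after implantation in mice. RNA of all 3 came from cells in culture, in the same medium with serum and antibiotics, and no line received a treatment. The oxygen level of the cultures is not given in the sources used here. Each group has 3 arrays labelled as biological replicates. Each metastatic class is represented by 1 line, so that class and line cannot be told apart. How separate the replicate cultures were is not stated, and the p-values describe variation among these arrays.

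HIFs are pairs of proteins. In the presence of oxygen, prolyl hydroxylases such as EGLN1 and EGLN3 mark the alpha subunit for destruction through VHL, and in low oxygen the alpha subunit accumulates, joins ARNT and switches on genes that carry a hypoxia response element. Many of those genes encode glucose transporters and glycolytic enzymes, while others serve vessel growth, mitochondrial turnover, collagen modification and the feedback on HIF itself. Carcinoma cells often run glycolysis at a high rate even with oxygen present, so glycolytic genes can be highly expressed without low oxygen.

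The promoters of 5 members are printed because they show the HIF core motif in genes that behaved differently below. RefSeq (GRCh38.p14) promoter sequences from 250 bases before to 50 bases after the gene start were found for 34 of the 38 genes. They were searched on both strands for ACGTG and GCGTG, the 5-base cores of the hypoxia response element, and CACGTG counts as ACGTG once on each strand. Capitals mark the matches, and a match on the other strand reads CACGT or CACGC. The SLC2A1 promoter (chr1:42958819-42959118, minus strand) held 1 match and that of HK2 (chr2:74833877-74834176, plus strand) held 3. Those of LDHA (chr11:18394313-18394612, plus strand) and BNIP3 (chr10:131981874-131982173, minus strand) held 6 each, and that of ANKRD37 (chr4:185396591-185396890, plus strand) held 3.
SLC2A1: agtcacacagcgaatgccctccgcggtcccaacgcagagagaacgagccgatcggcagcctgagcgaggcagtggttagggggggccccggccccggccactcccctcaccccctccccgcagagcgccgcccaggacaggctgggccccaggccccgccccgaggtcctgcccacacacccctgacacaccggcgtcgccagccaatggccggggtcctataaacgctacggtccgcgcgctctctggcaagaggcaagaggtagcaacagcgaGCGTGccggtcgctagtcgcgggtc
HK2: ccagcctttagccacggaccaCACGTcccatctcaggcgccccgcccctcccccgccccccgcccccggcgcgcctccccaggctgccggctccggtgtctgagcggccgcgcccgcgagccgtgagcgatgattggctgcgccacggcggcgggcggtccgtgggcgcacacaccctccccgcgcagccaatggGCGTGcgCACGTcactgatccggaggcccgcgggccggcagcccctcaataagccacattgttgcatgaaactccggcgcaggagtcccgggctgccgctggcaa
LDHA: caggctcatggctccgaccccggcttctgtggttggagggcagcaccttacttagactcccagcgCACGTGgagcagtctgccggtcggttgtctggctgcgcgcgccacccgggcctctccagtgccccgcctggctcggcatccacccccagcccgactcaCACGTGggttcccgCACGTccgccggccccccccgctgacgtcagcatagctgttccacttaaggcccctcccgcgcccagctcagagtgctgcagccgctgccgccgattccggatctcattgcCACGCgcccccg
BNIP3: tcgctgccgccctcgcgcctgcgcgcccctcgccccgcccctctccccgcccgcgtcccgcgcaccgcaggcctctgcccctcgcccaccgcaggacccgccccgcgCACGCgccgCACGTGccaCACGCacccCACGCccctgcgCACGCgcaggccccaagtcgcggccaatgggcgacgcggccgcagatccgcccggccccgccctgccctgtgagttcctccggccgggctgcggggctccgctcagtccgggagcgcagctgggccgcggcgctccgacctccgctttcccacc
ANKRD37: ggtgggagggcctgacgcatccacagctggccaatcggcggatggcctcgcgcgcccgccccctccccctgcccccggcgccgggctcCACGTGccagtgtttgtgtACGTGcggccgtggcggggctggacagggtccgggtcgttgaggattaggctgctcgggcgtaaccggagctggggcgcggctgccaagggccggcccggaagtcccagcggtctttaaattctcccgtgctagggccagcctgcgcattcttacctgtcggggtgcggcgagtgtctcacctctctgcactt

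At least 1 of the 2 cores stood in 25 of the 34 promoters (73.5%), against 48.4% of the 27305 promoters in the table. ACGTG alone was found in 47.1% against 21.6%. The share was 68.8% for the glycolytic enzymes (11 of 16) and 75% for the HIF targets outside glycolysis (9 of 12), so both classes carried the letters at like rates. The members' promoters had a median GC content of 69.7% against 58.3% for all promoters, and whether that accounts for the higher share was not tested.

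All 5 epithelial markers (CDH1, EPCAM, KRT8, KRT18, KRT19) lay above the median of every array. Of 7 intestinal markers, CDX1, CDX2 and VIL1 did, and KRT20 and LGALS4 did so on none. Among fibroblast, leukocyte and endothelial markers, 1 of 6, 1 of 5 and 1 of 4 lay above the median of all 9 arrays. One array stood apart. SCP51 replicate 1 correlated with the other arrays at r = 0.891 to 0.911 over all genes tested, while the best match of each other array reached 0.973 to 0.979. Its GAPDH control probe sets differed by -0.39 log2 units between the 3' and 5' ends, against -0.16 to -0.06 on the other arrays. The ACTB control sets did not single it out, at 0.12 on a range of -0.09 to 0.21. Some of the members whose SCP51 mean turned on it are given with and without it.

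Differences below are on the log2 scale, where 1 unit is a 2-fold change. They were tested with limma across all genes, and a difference is called when its Benjamini-Hochberg adjusted p is under 0.05. Where a gene has several probe sets, the gene is represented by its brightest. Between SCP51 and SCP58, 1 of the 38 members was called, against 4.08% of all genes tested. Between SCP51 and the parent none was called, against 2.96% of all genes, and 5 members had an unadjusted p under 0.05, as did 19.6% of all genes. Between SCP58 and the parent none was called, against 0.140% of all genes, and 9 members had an unadjusted p under 0.05, as did 8.6% of all genes (21.3% between SCP51 and SCP58). With every probe set tested by itself, 4 probe sets of 3 members were called between SCP51 and SCP58 (3.35% of all probe sets), 2 probe sets of 1 member between SCP51 and the parent (1.89%) and none between SCP58 and the parent (0.134%). Most of the 38 differences shared a sign in 2 of the comparisons. SCP51 lay above SCP58 for 28 members and below it for 10, with a median of 0.19 against -0.11 over all genes, and SCP58 lay below the parent for 32 members and above it for 6, with a median of -0.21 against 0. SCP51 lay above the parent for 19 and below it for 19, with a median of 0.00. The comparisons share arrays, so these counts are not independent. In cultured cells measured in bulk, fewer cells of a kind and less RNA per cell cannot be told apart.

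**Figure D1:**
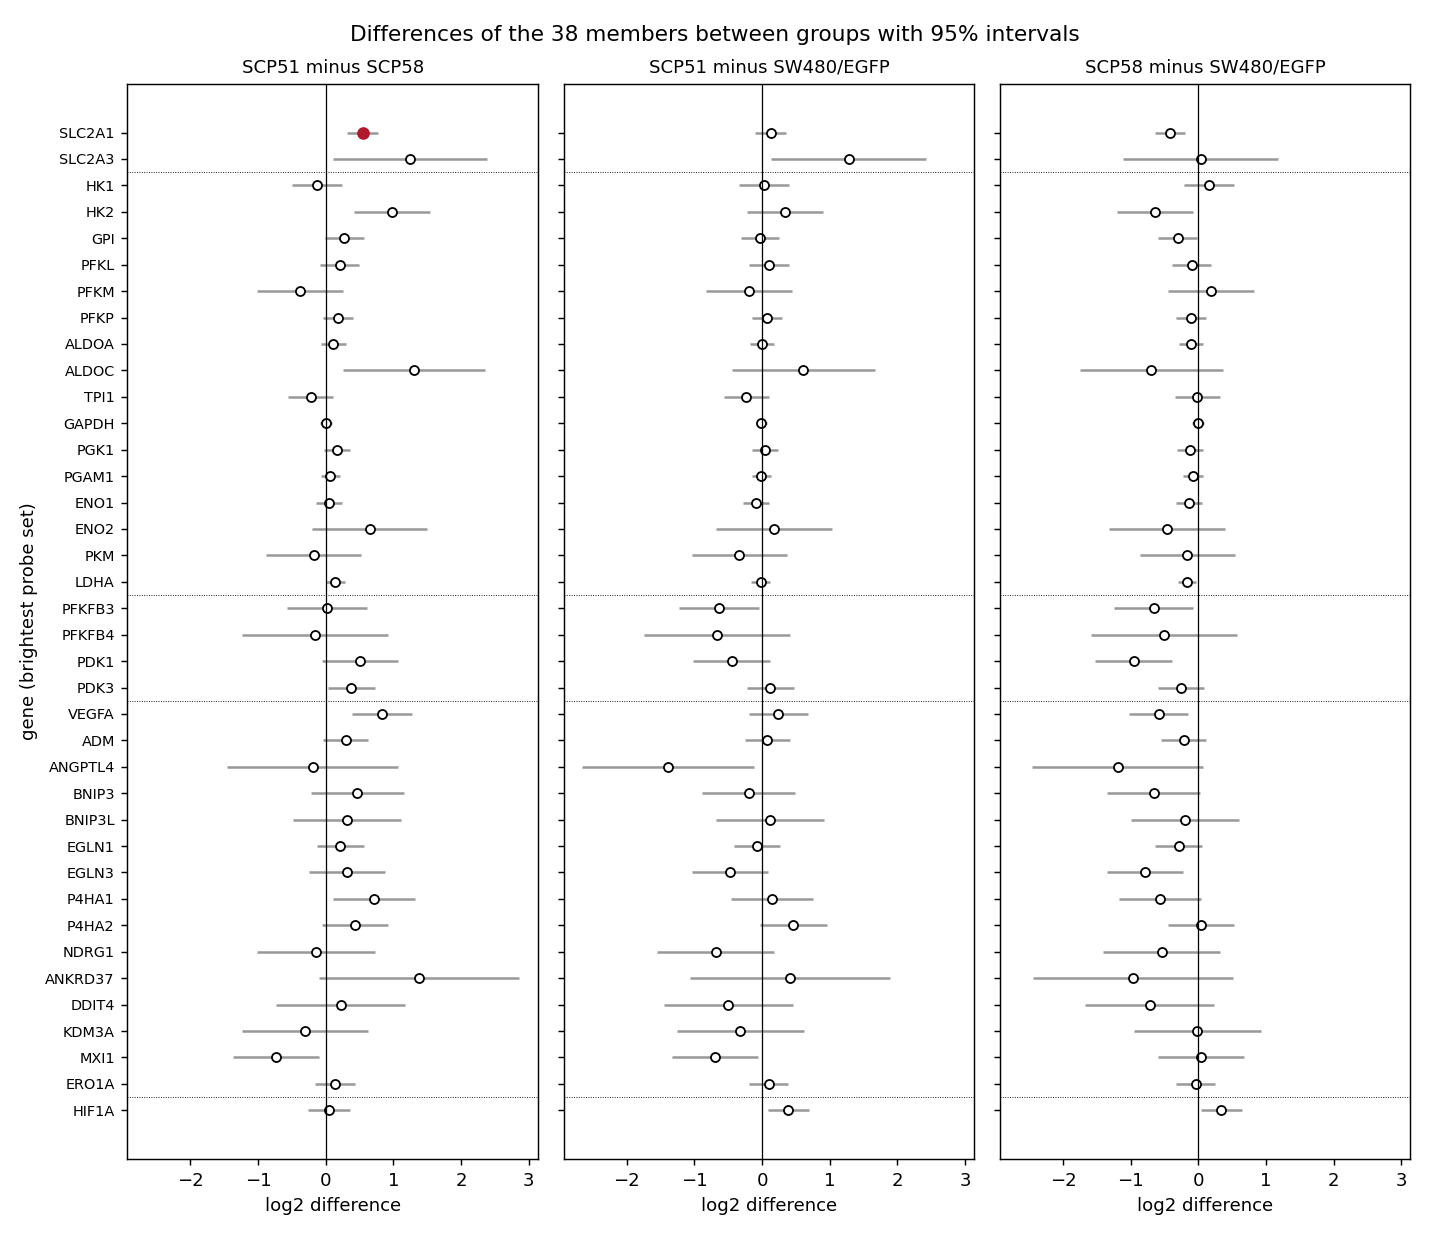
Log2 differences of the 38 members in the 3 comparisons, with 95% intervals from limma (x axis, log2 units; y axis, genes by role; brightest probe set of each gene). The filled red point is the only called member, SLC2A1 between SCP51 and SCP58, at 0.55; intervals are narrow for bright enzymes such as GAPDH and wide for ANKRD37, ANGPTL4 and ALDOC.

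Among all member probe sets tested by themselves, the largest differences of SCP51 from both other groups were those of SLC2A3, on 2 probe sets that are not its brightest. SLC2A3 encodes GLUT3, a high-affinity glucose transporter, and 5 probe sets read it. On probe set 202498_s_at the log2 signal was 9.02, 9.37 and 8.95 on the SCP51 arrays, 5.27, 6.61 and 4.98 on the parent arrays and 5.85, 5.52 and 6.28 on the SCP58 arrays. Every array of the other groups lay below every SCP51 array. The difference was 3.23 ± 0.40 (SE) from SCP58 (adjusted p = 0.00788) and 3.50 ± 0.40 from the parent (adjusted p = 0.00475). On 202499_s_at the values were 9.16, 9.30 and 9.45 in SCP51, 5.86, 7.14 and 5.84 in the parent and 4.73, 5.93 and 5.05 in SCP58. SCP51 was again apart, 4.07 ± 0.40 above SCP58 (adjusted p = 0.00505) and 3.02 ± 0.40 above the parent (adjusted p = 0.00914). On both probe sets the SCP58 and parent signals lay around the array medians of 5.36 to 5.47, where dim signals carry little information, so no fold is given. With 32 added to every signal before log2 the same differences were 2.68 and 2.81 on 202498_s_at and 3.23 and 2.57 on 202499_s_at. The call of 202499_s_at against the parent was lost without SW480/EGFP replicate 1 (adjusted p = 0.0537) and without replicate 3 (0.0503).

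The other 3 SLC2A3 probe sets differ in how specific they are. Probe sets 216236_s_at and 222088_s_at carry the symbols of both SLC2A3 and its near-identical copy SLC2A14, so they were not counted as members. They read 2.42 ± 0.28 and 2.79 ± 0.35 higher in SCP51 than in SCP58 (adjusted p = 0.00688 and 0.00839) and 2.83 ± 0.28 and 3.06 ± 0.35 higher than in the parent (adjusted p = 0.00262 and 0.0048). The brightest, 202497_x_at, has the suffix that marks probes liable to bind other transcripts. It read 6.98, 9.16 and 9.01 in SCP51, 6.99, 7.40 and 6.92 in the parent and 7.21, 7.03 and 7.17 in SCP58. SCP51 replicate 1 lay with the other groups there, although it was as high as its 2 companions on the other 4 probe sets. This is the probe set that stands for the gene, and its differences of 1.25 ± 0.50 from SCP58 (adjusted p = 0.2) and 1.28 ± 0.50 from the parent (adjusted p = 0.21) were not called. With SLC2A3's 3 probe sets averaged the differences were 2.85 and 2.60 (adjusted p = 0.00528 and 0.00612). Because of the copy, the share of the signal that comes from SLC2A3 and not from SLC2A14 is uncertain. SCP58 and the parent did not differ on any of the 5 beyond the threshold, and the differences ran from -1.05 to 0.41.

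**Figure D2:**
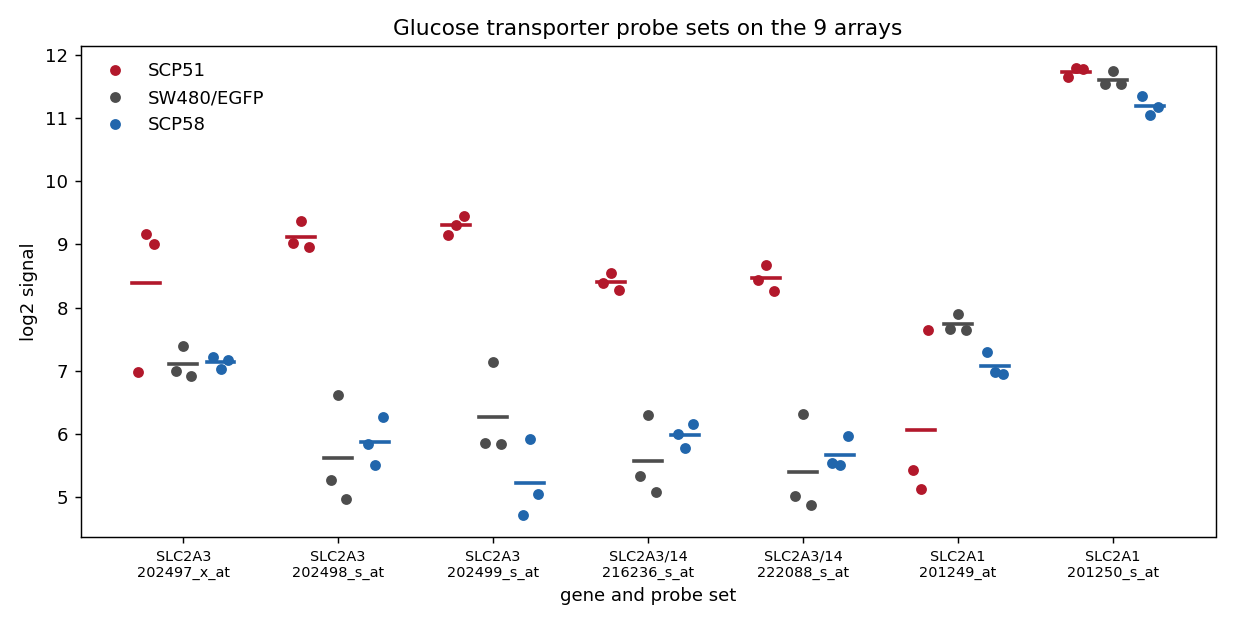
Log2 signal of the glucose transporter probe sets on the 9 arrays (y axis, log2 signal; x axis, gene and probe set; points are arrays, bars are group means, n = 3 per group). SCP51 stands above both other groups on 4 of the 5 SLC2A3 probe sets, and its replicate 1 falls with the other groups on 202497_x_at; the 2 SLC2A1 probe sets run opposite ways.

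SLC2A1 encodes GLUT1, the glucose transporter of most tissues and a classic HIF target. Its brightest probe set, 201250_s_at, read 11.64, 11.78 and 11.77 in SCP51, 11.53, 11.74 and 11.54 in the parent and 11.34, 11.04 and 11.18 in SCP58. The SCP58 arrays were the 3 lowest of the 9. SCP51 was higher than SCP58 by 0.55 ± 0.10 (1.46-fold, adjusted p = 0.0232), the only call among the brightest probe sets. It was 0.13 above the parent (adjusted p = 0.495), and SCP58 was 0.42 below the parent (adjusted p = 0.252). The call was lost in 7 of 21 alternative analyses, among them leaving out SCP51 replicate 2, SW480/EGFP replicate 3, SCP58 replicate 2 or SCP58 replicate 3 (adjusted p = 0.086, 0.0524, 0.0955 and 0.078). The second probe set, 201249_at, ran the other way. It read 5.44, 5.13 and 7.64 in SCP51, 7.67, 7.91 and 7.64 in the parent and 7.29, 6.98 and 6.95 in SCP58, a difference of -0.999 ± 0.56 from SCP58 (adjusted p = 0.372) that rests on 2 of the 3 SCP51 arrays. With both probe sets averaged, SLC2A1 was -0.23 between SCP51 and SCP58 (adjusted p = 0.72), so the direction for this gene depends on the probe set.

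Of the 16 glycolytic enzymes none was called in any comparison, and 3, 0 and 3 had an unadjusted p under 0.05 (SCP51 against SCP58, SCP51 against the parent, SCP58 against the parent). GAPDH, which makes the first high-energy intermediate of the lower pathway, read between 13.19 and 13.30 on all 9 arrays, and SCP51 and SCP58 differed by 0.00 (95% interval -0.09 to 0.09). The lower pathway was not even throughout. PKM, a pyruvate kinase, ranged from 9.52 to 10.68 and gave -0.18 ± 0.31 between SCP51 and SCP58. A dimmer PKM probe set, 213700_s_at, went the other way at 0.35 ± 0.09 (adjusted p = 0.0848). There every SCP51 array lay above every SCP58 array, so the direction for PKM depends on the probe set. For PGK1, PGAM1, ENO1 and LDHA the differences between SCP51 and SCP58 were 0.16, 0.07, 0.05 and 0.14, with SEs from 0.06 to 0.09. LDHA, which reduces pyruvate to lactate, read 12.75, 12.67 and 12.60 in SCP51, 12.66, 12.76 and 12.67 in the parent and 12.52, 12.47 and 12.60 in SCP58 (adjusted p = 0.207 between SCP51 and SCP58). One dim ENO1 probe set, 240258_at, was called at 1.10 ± 0.18 between SCP51 and SCP58 (adjusted p = 0.0182), while the other 3 ENO1 probe sets read 0.04 to 0.31. That call was lost when SCP58 replicate 3, SCP58 replicate 2 or SCP51 replicate 2 was left out (adjusted p = 0.0501, 0.0568 and 0.0647).

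The enzymes with the largest differences were isozymes that not every cell uses. HK2, the inducible hexokinase that traps glucose as glucose 6-phosphate, read 9.83, 10.02 and 9.87 in SCP51, 9.36, 10.21 and 9.14 in the parent and 8.96, 8.81 and 9.01 in SCP58. All SCP51 arrays and all parent arrays lay above all SCP58 arrays, and the parent values spanned those of SCP51. The difference between SCP51 and SCP58 was 0.98 ± 0.25 (1.97-fold, adjusted p = 0.0664), past the threshold in 7 of 21 alternative analyses, and a second HK2 probe set gave 0.40 (adjusted p = 0.126). HK1, the hexokinase of most cells, gave -0.13. ALDOC, an aldolase, read 9.40, 8.99 and 9.17 in SCP51, 7.73, 9.47 and 8.53 in the parent and 7.12, 8.55 and 7.97 in SCP58, a difference of 1.30 ± 0.46 between the progenies (adjusted p = 0.154). ALDOA, the aldolase of muscle and most proliferating cells, gave 0.11 ± 0.08. ENO2 gave 0.65 ± 0.38 (adjusted p = 0.363) where the main ENO1 probe set gave 0.05.

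Among the remaining enzymes, PFKM and TPI1 differed mainly on a single array. PFKM, a phosphofructokinase, read 9.55 on SCP51 replicate 1 and 10.37 to 10.81 on the other 8 arrays, and without that array its difference between the progenies went from -0.38 to 0.00. The brightest TPI1 probe set read 11.31 on that array and 11.87 to 11.99 on the others, while another bright TPI1 probe set read 11.92 there, the highest of the 9 arrays. Without SCP51 replicate 1 the count of enzymes higher in SCP51 than in SCP58 was 13 of 16, against 11 with it. GPI, which turns glucose 6-phosphate into fructose 6-phosphate, was 0.28 ± 0.13 higher in SCP51 than in SCP58 (adjusted p = 0.251) with no overlap between the groups. PFKL and PFKP were 0.20 ± 0.13 and 0.18 ± 0.10 higher (adjusted p = 0.405 and 0.325), with overlap. In all, 3 enzymes (HK2, GPI and ALDOC) had every SCP51 array above every SCP58 array. Over all 38 members that count was 11, against 7.91% of all genes. Between SCP58 and the parent, 9 members had every SCP58 array below every parent array, against 7.58% of all genes.

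On their brightest probe sets, all 4 regulators of glycolysis had lower means in SCP58 than in the parent, none of them called. In that comparison a second PFKFB4 probe set gave 0.055, and the dimmer PDK3 probe sets gave -0.38 to 0.05. Without SW480/EGFP replicate 2 the PFKFB4 difference was 0.08, while those of PDK1, PFKFB3 and PDK3 stayed below 0. PDK1, the kinase that shuts pyruvate dehydrogenase and so keeps pyruvate out of the mitochondria, read 7.71, 8.42 and 7.68 in the parent, 6.65, 6.92 and 7.36 in SCP58 and 7.25, 7.62 and 7.58 in SCP51. On this probe set every SCP58 and every SCP51 array lay under the 3 parent arrays. The difference from the parent was -0.96 ± 0.25 for SCP58 (adjusted p = 0.301) and -0.45 ± 0.25 for SCP51 (adjusted p = 0.342). On a dimmer PDK1 probe set, 206686_at, both progenies overlapped the parent. It gave -0.61 ± 0.41 for SCP58 (adjusted p = 0.814) and -0.32 ± 0.41 for SCP51 (adjusted p = 0.709). PFKFB3, which makes the activator of phosphofructokinase, read 9.04, 8.94 and 8.87 in the parent, 8.15, 8.63 and 8.08 in SCP58 and 8.09, 7.94 and 8.90 in SCP51, with differences of -0.66 and -0.64 for the 2 progenies (adjusted p = 0.514 and 0.222). PFKFB4 read 8.96 on SW480/EGFP replicate 2 and 6.73 to 7.71 on the other 8 arrays. PDK3 was 0.38 ± 0.15 higher in SCP51 than in SCP58 (adjusted p = 0.197). Its other probe sets gave -0.35, 0.14, -0.24 and 0.18, and the mean of all its probe sets gave 0.02.

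Among the 15 HIF targets outside glycolysis none was called in any comparison, and 3, 2 and 2 had an unadjusted p under 0.05 in the same order of comparisons. SCP51 lay above SCP58 for 11 of them. VEGFA, the vascular growth factor, read 9.95, 9.78 and 9.92 in SCP51, 9.33, 10.07 and 9.53 in the parent and 8.88, 9.06 and 9.23 in SCP58. The progenies did not overlap, and the difference of 0.83 ± 0.19 (1.78-fold, adjusted p = 0.0523) missed the threshold narrowly and passed it in 7 of 21 alternative analyses. The other 3 VEGFA probe sets gave 0.34, 0.53 and -0.04. P4HA1, a subunit of the enzyme that hydroxylates collagen prolines, read 10.11, 9.93 and 9.80 in SCP51, 9.35, 10.48 and 9.57 in the parent and 9.15, 9.16 and 9.38 in SCP58, a difference of 0.72 ± 0.27 between the progenies (adjusted p = 0.17). Its relative P4HA2 gave 0.43 and the secreted peptide ADM 0.30, both without overlap and without a call (adjusted p = 0.294 and 0.284).

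BNIP3, which targets mitochondria for autophagy, read 10.21, 9.36 and 9.76 in SCP51, 9.56, 10.66 and 9.70 in the parent and 9.33, 9.31 and 9.29 in SCP58. The SCP58 arrays were the 3 lowest and nearly equal (SD 0.02), while the parent arrays had an SD of 0.60. The differences were 0.47 between the progenies (adjusted p = 0.417) and -0.66 between SCP58 and the parent (adjusted p = 0.612). On a second BNIP3 probe set SCP51 replicate 1 was the lowest of the 9 arrays, at 9.14, and the progenies differed by 0.03. EGLN3, the oxygen sensor most strongly induced by HIF in many cells, read 6.2, 6.0 and 6.0 in SCP51, 6.0, 7.1 and 6.5 in the parent and 5.8, 5.7 and 5.7 in SCP58, again the 3 lowest arrays, with differences of 0.31 between the progenies (adjusted p = 0.501) and -0.79 between SCP58 and the parent (adjusted p = 0.393). MXI1, a MAX partner that opposes MYC, was the HIF target whose SCP51 arrays all lay below the SCP58 arrays. It read 9.15, 8.44 and 8.41 in SCP51, 8.88, 9.89 and 9.31 in the parent and 9.32, 9.51 and 9.38 in SCP58. Its difference between the progenies was -0.74 ± 0.28 (adjusted p = 0.175), and without SCP51 replicate 1 it was -0.98 (adjusted p = 0.0414).

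For several targets 1 SCP51 array set the group mean. ANKRD37, a small ankyrin-repeat protein strongly induced by hypoxia, read 9.59, 7.24 and 7.64 in SCP51, 7.59, 8.67 and 6.96 in the parent and 7.27, 6.93 and 6.15 in SCP58. DDIT4, an inhibitor of mTORC1 signalling, read 11.34, 10.00 and 10.00 in SCP51, 10.27, 11.61 and 10.96 in the parent and 10.00, 10.28 and 10.39 in SCP58. In both, SCP51 replicate 1 lay more than 1 log2 unit above its companions, and the differences of 1.38 ± 0.65 and 0.22 ± 0.42 between the progenies were not called (adjusted p = 0.267 and 0.797). That is the array with the low correlations. Without it the difference between the progenies was 0.66 for ANKRD37 and turned to -0.22 for DDIT4, and ANKRD37 turned from 0.42 to -0.30 between SCP51 and the parent. NDRG1, a stress-response protein, gave -0.14, ANGPTL4, a secreted inhibitor of lipoprotein lipase, -0.20 and the histone demethylase KDM3A -0.31, with SEs of 0.38 to 0.56. A second ANGPTL4 probe set gave 0.095 ± 0.58.

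HIF1A, the oxygen-regulated subunit itself, read 11.09, 11.36 and 11.19 in SCP51, 10.85, 10.71 and 10.93 in the parent and 10.94, 11.14 and 11.42 in SCP58. Both progenies lay above all parent arrays, by 0.39 ± 0.13 for SCP51 (adjusted p = 0.172) and 0.34 ± 0.13 for SCP58 (adjusted p = 0.523), and they differed from each other by 0.05. HIF1A activity is set largely by protein stability, which arrays do not measure.

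Set side by side, the enzymes and the other HIF targets differed in the size of their medians more than in direction. The lists also differed in brightness. Mean log2 signals ran from 7.4 to 13.2 for the enzymes and from 6.1 to 11.2 for the HIF targets. Whether brightness bears on the size of the differences was not tested. Between SCP51 and SCP58 the median was 0.13 for the enzymes (11 of 16 above 0) and 0.30 for the HIF targets (11 of 15 above 0), a gap of -0.17. Between SCP58 and the parent it was -0.12 for the enzymes (14 of 16 below 0) and -0.54 for the HIF targets (13 of 15 below 0), a gap of 0.43. Between SCP51 and the parent it was 0.00 for the enzymes (8 of 16 above 0) and -0.08 for the HIF targets (7 of 15). These last signs turned with the scaling or the arrays used: the enzyme median was 0.09 after quantile normalization and 0.05 after centring on the 75th percentile, and the HIF target median was 0.15 without SW480/EGFP replicate 2. The pooled SD of the gap between arrays of a group was 0.29, and only the gap between SCP58 and the parent was larger. That SD is for single arrays, while the gaps above are differences of group means. It also includes SW480/EGFP replicate 2, where the gap was -0.68, against 0.14 and -0.01 on the other parent arrays. It therefore cannot decide which gaps exceed the variation between arrays. In absolute size, 8 of the 15 HIF targets and 2 of the 16 enzymes differed by at least 0.5 log2 units between SCP58 and the parent, against 4 and 3 between SCP51 and SCP58. Without SW480/EGFP replicate 2, 1 HIF target (ANGPTL4) and 0 enzymes did so between SCP58 and the parent. A second ANGPTL4 probe set had closer group means over all arrays, 7.13 in SCP58 and 7.33 in the parent, against 7.25 and 8.44 on the brightest. No list had a called member in the comparison of SCP58 with the parent.

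That gap came with 1 array. SW480/EGFP replicate 2 was the highest of the 9 arrays for 12 of the 15 HIF targets (80%), for 11 of the 16 enzymes (68.8%) and for 25 of the 38 members, against 12.6% of all genes tested. It lay above both other parent arrays for all 15 HIF targets, for 15 of the 16 enzymes and for 35 of the 38 members. The size of its excess over the mean of the other 2 parent arrays differed between the lists, with a median of 0.99 log2 units for the HIF targets and 0.20 for the enzymes. Among single genes, NDRG1 read 10.62 on it against 8.94 and 9.20 on the other parent arrays, KDM3A 9.80 against 8.21 and 8.53, P4HA1 10.48 against 9.35 and 9.57, and LDHA 12.76 against 12.66 and 12.67. The array correlated with another array at up to r = 0.978 over all genes, in the range of its companions, and its GAPDH ends differed by -0.16, so it did not stand apart as SCP51 replicate 1 did. The HIF1A signal on it, 10.71, was the lowest of the 9.

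**Figure D3:**
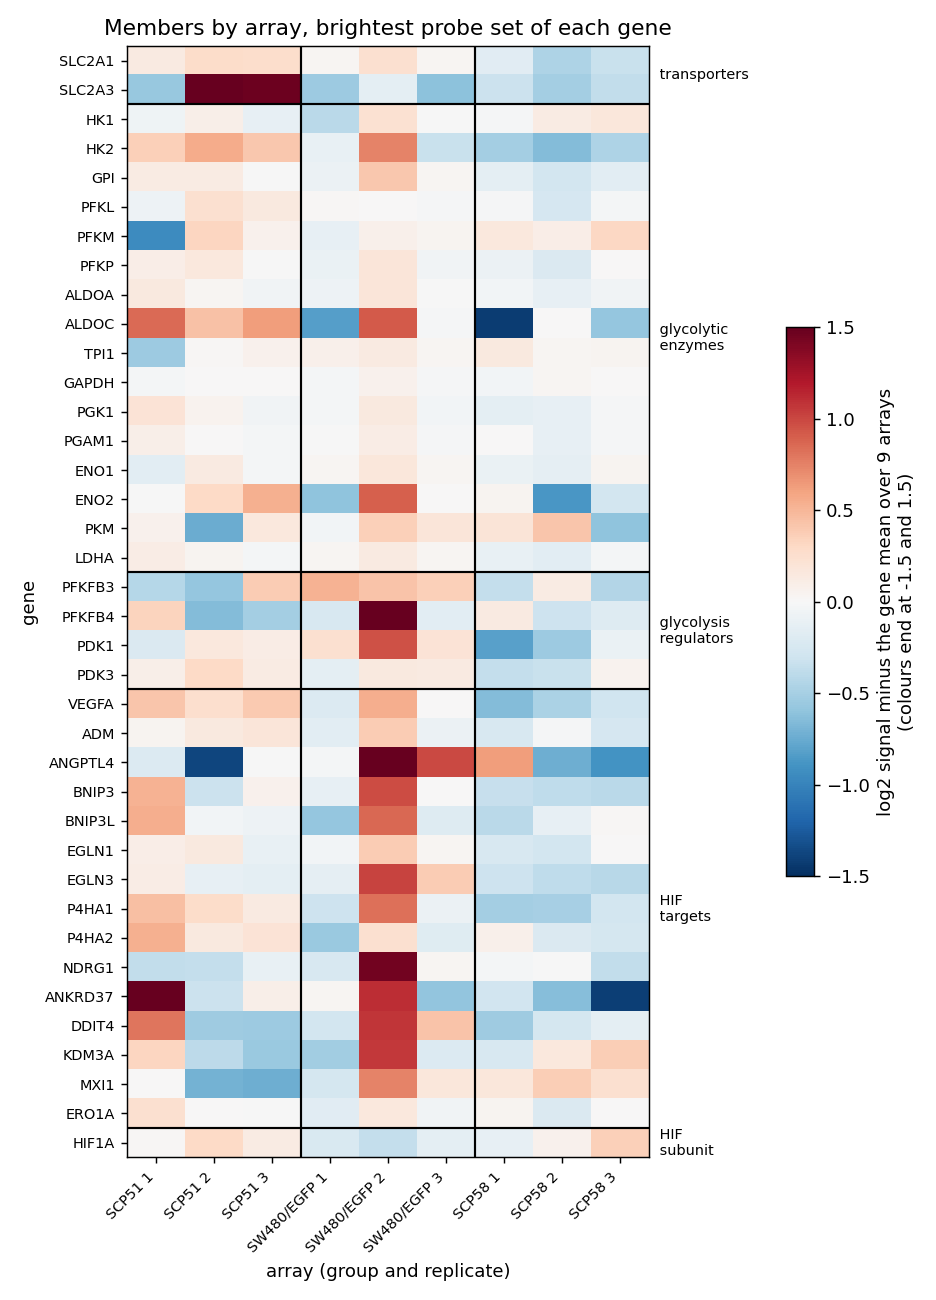
Log2 signal of each member on each of the 9 arrays minus the gene's mean over the 9 arrays (colour scale, log2 units, ending at -1.5 and 1.5; rows are genes by role, columns are arrays). The column of SW480/EGFP replicate 2 is red for nearly every HIF target and pale red for most enzymes, and it is the highest of the 9 arrays for 25 of the 38 members.

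Within-group spread showed the same. The median SD of a HIF target was 0.60 among parent arrays, 0.21 among SCP51 arrays and 0.17 among SCP58 arrays, while the median over all genes was smallest in the parent at 0.13 (0.21 in SCP51 and 0.17 in SCP58). For the enzymes it was 0.12, 0.12 and 0.10 (parent, SCP51, SCP58). Summarised per array as the median deviation from the gene means, the HIF targets stood at -0.20, 0.86 and 0.00 in the parent, 0.33, -0.12 and -0.01 in SCP51 and -0.24, -0.26 and -0.26 in SCP58. The SCP58 arrays were the 3 lowest and nearly identical, at -0.26 ± 0.01 (SD, n = 3), against 0.06 ± 0.23 for SCP51 and 0.22 ± 0.56 for the parent. The enzymes stood at -0.06, 0.18 and -0.01 in the parent, 0.08, 0.11 and 0.00 in SCP51 and -0.04, -0.13 and -0.03 in SCP58.

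**Figure D4:**
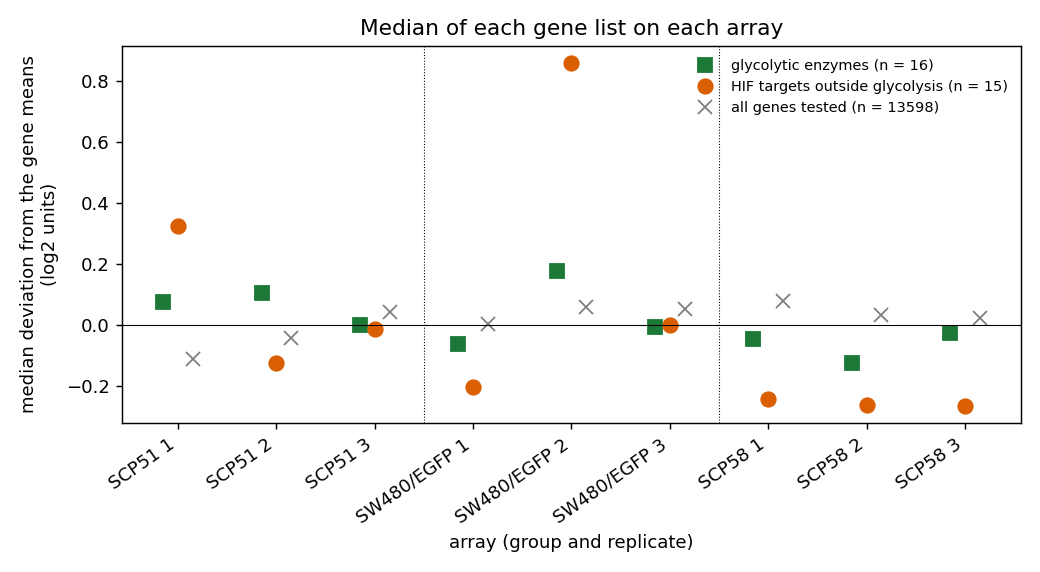
Median deviation from the gene means on each array (y axis, log2 units; x axis, the 9 arrays by group) for the 16 glycolytic enzymes, the 15 HIF targets outside glycolysis and all 13598 genes tested. The HIF targets reach 0.86 on SW480/EGFP replicate 2 and lie between -0.26 and -0.24 on the 3 SCP58 arrays, while the enzymes stay between -0.13 and 0.18.

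Without SW480/EGFP replicate 2, the HIF target median between SCP58 and the parent was -0.16 and the enzyme median -0.06, which leaves a gap of 0.10, and 10 of the 15 HIF targets were nearer 0. NDRG1 went from -0.54 to -0.03, P4HA1 from -0.57 to -0.23 and BNIP3 from -0.66 to -0.32. The counts below 0 fell to 10 of 15 and 12 of 16. The direction between SCP51 and SCP58 does not use that array, but the shared estimate of spread does, and without it 4 members were called between SCP51 and SCP58, namely HK2 (0.98, adjusted p = 0.0131), P4HA1 (0.72, 0.0396), SLC2A1 (0.55, 0.0296) and VEGFA (0.83, 0.0239), against 3.30% of all genes in that fit. Without SCP51 replicate 1 the 4 called members were MXI1, SLC2A1, SLC2A3 and VEGFA, against 8.85% of all genes, and the HIF target median between the progenies was 0.19 (10 of 15 above 0). With both arrays left out, 6 members were called between SCP51 and SCP58, against 8.93% of all genes in that fit. HK2 (1.02), P4HA1 (0.64), SLC2A1 (0.59), SLC2A3 (1.95) and VEGFA (0.80) were higher in SCP51, with adjusted p from 0.00119 to 0.0267, and MXI1 (-0.98, adjusted p = 0.0107) was lower. HK2 (0.70, adjusted p = 0.0442) and SLC2A3 (2.13, adjusted p = 0.00124) were then also called above the parent, against 3.11% of all genes. These arrays were picked after their values were seen.

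**Figure D5:**
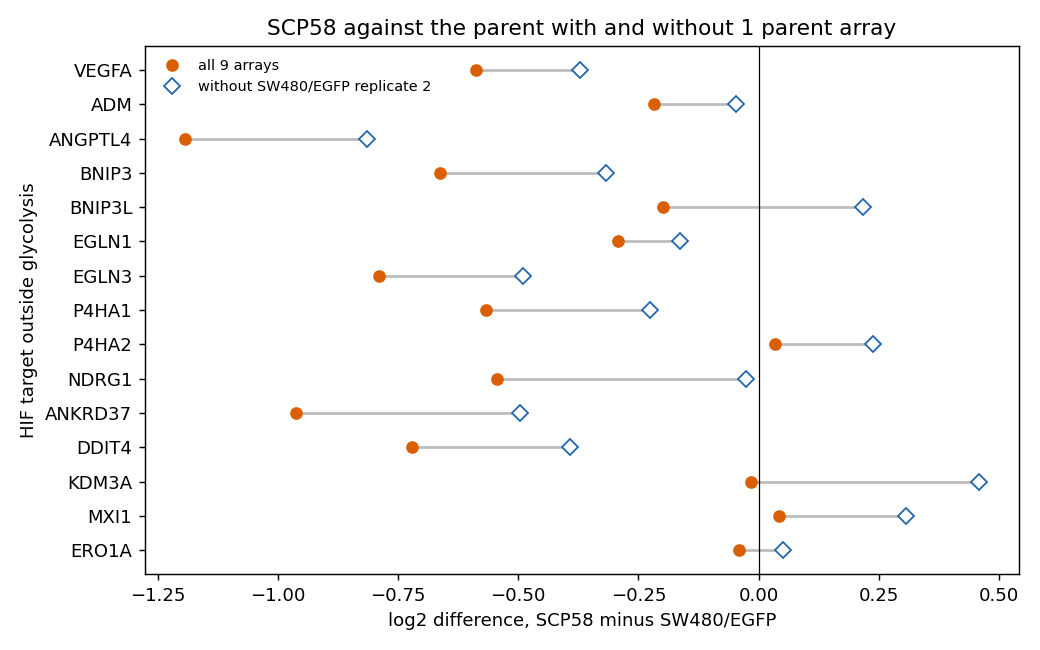
Log2 difference of SCP58 from SW480/EGFP for the 15 HIF targets outside glycolysis (x axis, log2 units; y axis, genes), with all 9 arrays (filled circles) and without SW480/EGFP replicate 2 (open diamonds). Every gene shifts to the right when the array is left out, and the median goes from -0.54 to -0.16.

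Other genes of the pathway were read from 4 further lists. Of 40 other HIF targets 30 were measured, with medians of -0.02, -0.03 and -0.14 in the 3 comparisons, and 3 were called higher in SCP51 than in SCP58. LOXL2, a collagen cross-linking oxidase, read 7.75, 7.89 and 8.03 in SCP51, 6.53, 7.35 and 6.71 in the parent and 6.49, 5.97 and 6.29 in SCP58, and was higher in SCP51 by 1.64 ± 0.22 than in SCP58 (adjusted p = 0.0085, called with each array left out in turn) and by 1.03 ± 0.22 than in the parent (adjusted p = 0.0489, called in 2 of the 9 such fits, without SCP51 replicate 1 or SW480/EGFP replicate 2). STC2, a secreted glycoprotein, was 1.47 ± 0.33 higher in SCP51 than in SCP58 (adjusted p = 0.0461) and JMJD6, a nuclear oxygenase, 0.55 ± 0.12 (adjusted p = 0.0458), each called in the same 2 of 9 fits. SW480/EGFP replicate 2 was the highest array for 17 of these 30 genes (56.7%), with a median deviation of 0.34.

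Of 14 genes of the HIF machinery 13 were measured and 1 was called. ELOC, a subunit of the VHL ubiquitin ligase encoded on chromosome 8, read 10.93, 10.87 and 11.12 in SCP51, 11.63, 11.45 and 11.60 in the parent and 11.67, 11.60 and 11.53 in SCP58. It was lower in SCP51, with differences of -0.63 ± 0.09 from SCP58 (adjusted p = 0.00993) and -0.58 ± 0.09 from the parent (adjusted p = 0.0141). Leaving out SCP58 replicate 2 ended the former call, and leaving out SCP51 replicate 2, SW480/EGFP replicate 1 or SW480/EGFP replicate 3 ended the latter. Of 11 genes that govern pyruvate entry into mitochondria 10 were measured and none was called by limma, with 1 unadjusted p under 0.05 in each comparison. All 10 lay below 0 between SCP51 and SCP58, with a median of -0.29 where all genes had -0.11. For some of them the low SCP51 mean came with SCP51 replicate 1. PDP1 read 11.38 on it and 12.36 and 12.21 on the other SCP51 arrays, against an SCP58 mean of 12.15. The count below 0 without that array was not computed. Of 27 other isozymes and branch enzymes of glycolysis 16 were measured and none was called by limma (5, 4 and 2 with an unadjusted p under 0.05), and their median between SCP51 and SCP58, -0.11, was that of all genes.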

How the data were processed

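RNA of 9 cultures was labelled with biotin for Affymetrix arrays, per the labels' protocols. The deposited values are linear intensities per probe set. The submitters' processing notes name GCOS 1.4 as the authors' tool, and neither its scaling target nor its summarisation of probes is given in the sources used here. Values under 1 were raised to 1 before taking log2, and the arrays were not rescaled. Probe sets above the array's median on at least 3 of 9 arrays were kept (29166, of which 73 belong to members). The brightest probe set with 1 gene symbol stood for each gene, with symbols updated through Entrez identifiers in RefSeq (GRCh38.p14, 99.9% matched). Of the 84 ordinary member probe sets, 11 in 11 members were under the filter, with group means up to 5.60. Array medians lay between 5.36 and 5.47.

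limma 3.58.1 in R 4.3.3 fitted 1 mean per group over all 9 arrays with an intensity trend, and every adjusted p (Benjamini-Hochberg, two-sided, over all genes or all probe sets) comes from it. The number of arrays limits the precision. The fit was tested on simulated data. The members and lists were chosen with earlier results of these data known. The rule for named genes allowed all members, those called or with the largest difference in their role with every array, and from the pathway lists the called genes. PDP1 is named outside that rule, for its dependence on 1 array. Alternatives were other filters, scalings, offsets, models and probe set rules, the replicate number as a block and each array left out. Leaving out 2 arrays together, leaving out probe sets ending in _x_at, and the alternatives for single probe sets and for called pathway genes were chosen after seeing the data. No set test and no test of a list score was run.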

Additional observations from a re-analysis of the deposited data

How the results depend on the processing

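The count of members called is given with the share of all genes called in the same fit in brackets. Between SCP51 and SCP58 it was 1 with the settings used (4.08%) and 0 to 4 with 1 array left out (1.02% to 8.85%). It was 2 with a filter at the 65th percentile (5.51%), 3 after quantile normalization (4.57%) and 3 after centring on the 75th percentile (4.49%). Array weights gave 5 (11.2%), and probe sets averaged per gene gave 2 (2.97%). With every probe set by itself, 3 members had a called probe set (3.35% of all probe sets). The count was 2 without _x_at probe sets (4.31%) and 6 without SCP51 replicate 1 and SW480/EGFP replicate 2 (8.93%). Between SCP51 and the parent it was 0 with the settings used (2.96%) and 0 to 1 with 1 array left out (0.905% to 5.39%). Array weights gave 2 (9.97%), the mean of probe sets 1 (2.18%) and every probe set by itself 1 (1.89% of all probe sets). It was 1 without _x_at probe sets (2.83%) and 2 without both arrays (3.11%). The member called without SCP51 replicate 3 was PFKFB3 (-0.94, adjusted p = 0.042), and without SCP51 replicate 1 it was SLC2A3. For SCP58 against the parent, with 0 called, array weights gave 5 genes, against 9.94% of all genes in that fit, and 8 probe sets. The 5 genes were ANGPTL4, EGLN3, LDHA, PDK1 and SLC2A1, all lower in SCP58. Member probe sets called between SCP51 and SCP58 numbered 4. They numbered 2 to 7 when 1 array was left out, 10 with array weights and 9 without both arrays. Between SCP51 and the parent they numbered 2, with 1 to 3 when 1 array was left out and 5 with array weights. The shares of all probe sets called in those alternative fits are not given here. Array weights raised the count over all genes as well, from 555 to 1527 between SCP51 and SCP58. The count rose from 402 to 1356 between SCP51 and the parent and from 19 to 1351 between SCP58 and the parent. The gap between the enzyme and HIF target medians for SCP58 against the parent, 0.43, was 0.10 to 0.58 with 1 array left out, 0.10 without both arrays and 0.12 with every probe set by itself. SLC2A1 between SCP51 and SCP58 turned to -0.23 with the mean of its probe sets, whose second probe set runs the other way. The cause of the other changes was not tested. Of 327 values recomputed under an alternative, 269 kept their direction and side of the threshold or stayed near the value used. For a gap, near meant a shift under 0.29, so a small gap could change sign and still count. Some fits left out an array outside the comparison, and SLC2A1 entered both as a gene and as a probe set. The tally therefore does not measure how stable the results are.

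The titles do not say that the replicate numbers pair the samples. Deviations from the group means correlated at r = -0.22 to 0.13 between same-numbered arrays, over all genes. Pairs with different numbers were not compared, so these values cannot decide whether the samples were paired. With the number as a replicate block, 0 members were called between SCP51 and SCP58 (210 genes in all, against 555), and 2 member probe sets. Signals near the array median limit what can be read from dim probe sets such as 240258_at.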
